A study of Mus musculus with 8 samples.

Results

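The genes described here were the mouse metallothionein genes Mt1, Mt2, Mt3 and Mt4 and Mtf1, the gene of the zinc sensing transcription factor MTF1. They were taken by symbol, through the Ensembl gene IDs of the GENCODE M39 annotation, and made up 5 of the 55414 genes counted in sorted Paneth cells. All 5 had an entry in the table of counts, and 4 of them had enough counts to be tested. The rule used symbols and no measured values, but earlier results of these data were known when the genes were chosen.

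Metallothioneins are small proteins, rich in cysteine, that bind zinc and copper and can take up cadmium. MTF1 is a zinc finger protein that binds DNA when free zinc in the cell rises, at short sequences called metal response elements, and Mt1, Mt2 and the zinc exporter gene Slc30a1 are its classic targets. Mt3 is best known from the brain and Mt4 from stratified squamous epithelia, while Paneth cells, the secretory cells at the base of the intestinal crypt, are known for the zinc stored with the antimicrobial proteins of their granules.

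All mice were C57BL/6J with no genetic change named in the labels. The water group (4 mice) drank Milli-Q water and the zinc group (4 mice) drank water with 25 mM ZnSO4, both for 7 days, after which Paneth cells were sorted from the small intestine by flow cytometry and their RNA was sequenced with a stranded mRNA kit. The sources used here name neither the age nor the sex of the mice. Library totals ran from 20760764 to 24117111 counts. Levels are given as CPM, the counts put on one library size with TMM factors (from 0.764 to 1.23), and a gene with 0 counts could still have stood at 0.115 to 0.188 CPM, the level of 3 counts. All 6 Paneth cell markers checked (Lyz1, Defa24, Mmp7, Itln1, Ang4, Mptx2) were abundant, with a summed level of 323831 to 623781 CPM with water and 306404 to 626216 CPM with zinc, and their log2 fold changes lay between -0.12 and 0.06.

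On GRCm39 the metallothionein genes stood in a row on the plus strand of chromosome 8 within 43131 bases, in the order Mt4, Mt3, Mt2, Mt1. Mt4 (ENSMUSG00000031757) spanned 94863825 to 94865661 with 3 merged exons, Mt3 (ENSMUSG00000031760) spanned 94879220 to 94881088 with 3, Mt2 (ENSMUSG00000031762) spanned 94898819 to 94900207 with 4, and Mt1 (ENSMUSG00000031765) spanned 94905710 to 94906955 with 1. Mtf1 (ENSMUSG00000028890) lay apart from them on chromosome 4, at 124695897 to 124743593 on the plus strand, with 12 merged exons.

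The sequences around the starts of these genes are shown because they hold the letters that MTF1 is known to read. The core of the metal response element was searched as TGCGCNC and TGCACNC on both strands, from 300 bases before to 300 bases after the start of the canonical transcript, a window set after the expression values were known. The 2 forms differ at a fixed letter, so they cannot match the same 7 bases, and no other motif was searched. Each line gives 21 bases of GRCm39 on the strand of the gene with the match in capitals. A match written GNGTGCA or GNGCGCA lies on the other strand, and the number after the gene is the position of the first capital, where 1 is the first base of the transcript and -1 the base before it.
Mt1, -16, chr8:94905687-94905707: cccgctgTGCACACtggcgct
Mt1, 10, chr8:94905712-94905732: ggagctcTGCACTCcgcccga
Mt1, 28, chr8:94905730-94905750: cgaaaagTGCGCTCggctctg
Mt1, 92, chr8:94905794-94905814: gcctgctGGGTGCAaaccctt
Mt1, 106, chr8:94905808-94905828: aacccttTGCGCCCggactcg
Mt2, -109, chr8:94899016-94899036: tcgcctcTGCACCCggcccct
Mt2, -14, chr8:94899111-94899131: gacccttTGCGCTCagctcct
Mt2, 65, chr8:94899189-94899209: ggagggcGTGTGCAggctctg
Mt2, 119, chr8:94899243-94899263: tcgggtcGTGCGCAggcccag
Mt2, 173, chr8:94899297-94899317: aaagggcGTGTGCAggcggcg
Mt2, 192, chr8:94899316-94899336: cgggggcGCGTGCAtggtgcc
Mt2, 226, chr8:94899350-94899370: gagctttTGCGCTCgacccaa
Mt3, 43, chr8:94879255-94879275: acagcagTGCACACacacgga
Mt3, 70, chr8:94879282-94879302: gcgctgtGCGTGCAtaggggc
Mt3, 102, chr8:94879314-94879334: cgctgctTGCGCGCccccgcc
Mt4, -84, chr8:94863734-94863754: ctgggccGTGTGCAgggcgtc

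Mt2 thus held 7 matches and Mt1 held 5, with 3 at Mt3 and 1 at Mt4. Of 21757 windows of the same length around the starts of protein-coding genes, 46.9% held at least 1 match, 7.40% held 3 or more, 0.864% held 5 or more and 0.101% held 7 or more. The window of Slc30a1 held 4 matches, a number reached by 2.49% of windows, and the windows of Mtf1 and of the importer gene Slc39a10 held 0. The windows were not matched for base composition, and a match describes letters and not binding. Positions are counted from the annotated start of the canonical transcript, and where transcription starts in these cells was not measured. Annotated starts can differ within a gene: the Mt2 gene begins at 94898819 and its canonical transcript at 94899132. For a window with 0 matches only these letters in these 600 bases were looked at.

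The comparison of zinc with water asked how the metallothionein genes and their regulator behaved in Paneth cells after a week of oral zinc. Mt2 and Mt1 both rose, with all 4 zinc libraries above all 4 water libraries. Of the 5 genes these were the ones past the threshold, and both were higher with zinc. Over all 11988 genes tested, 10 passed (0.0834%), of which 3 were higher (0.025%) and 7 lower (0.0584%). An unadjusted edgeR p under 0.05 was held by 558 of the 11988, the background for the list counts below. No overlap between the groups was seen for 340 genes (2.84%), of which 149 were higher with zinc (1.24%) and 191 lower (1.59%).

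Mt2 encodes 1 of the 2 widely expressed metallothioneins. It had 45, 50, 173 and 92 counts in water libraries 1 to 4 and 3906, 9431, 5191 and 6183 counts in zinc libraries 1 to 4. After scaling this was 2.81, 2.15, 7.32 and 3.51 CPM with water against 232, 455, 205 and 239.8 CPM with zinc. The lowest zinc library stood 28.0 times above the highest water library, and the libraries that set these ends were zinc 3 and water 3. The mean went from 3.95 ± 2.31 to 283 ± 116 CPM (SD, n = 4 each), 71.7 times higher. The change on the log2 scale, 6.15 with an SE of 0.51, was the largest in size of all genes tested, and with an edgeR adjusted p of 0.0198 the gene stood in place 5 by p. The edgeR adjusted p was above 0.05 without water 1 (0.0906), without water 2 (0.0807) and without water 4 (0.0883), with log2 fold changes between 5.82 and 6.63 whichever library was left out. With the replicate number as a block, the edgeR adjusted p of Mt2 was 0.241.

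Mt1, the other widely expressed form, started from a higher level. Its counts were 247, 320, 688 and 664 with water and 3755, 8807, 4781 and 5635 with zinc. On the CPM scale the water libraries read 15.4, 13.7, 29.1 and 25.4 and the zinc libraries read 223, 425, 189 and 219. Water 3 was again the highest of its group and zinc 3 the lowest, and between them lay a factor of 6.49. The mean went from 20.9 ± 7.48 to 264 ± 109 CPM (SD, n = 4 each), 12.6 times higher. The change on the log2 scale was 3.65 with an SE of 0.38 (edgeR adjusted p of 0.0259), in place 2 by size and in place 10 by p of the genes tested. It lay between 3.32 and 3.85 whichever library was left out. The edgeR adjusted p was above 0.05 without water 1 (0.159), water 2 (0.0807), water 3 (0.0664), water 4 (0.126), zinc 1 (0.0612) or zinc 4 (0.0744), and below it without zinc 2 (0.000333) or zinc 3 (0.0443). With the replicate number as a block, the edgeR adjusted p of Mt1 was 0.379.

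**Figure D1:**
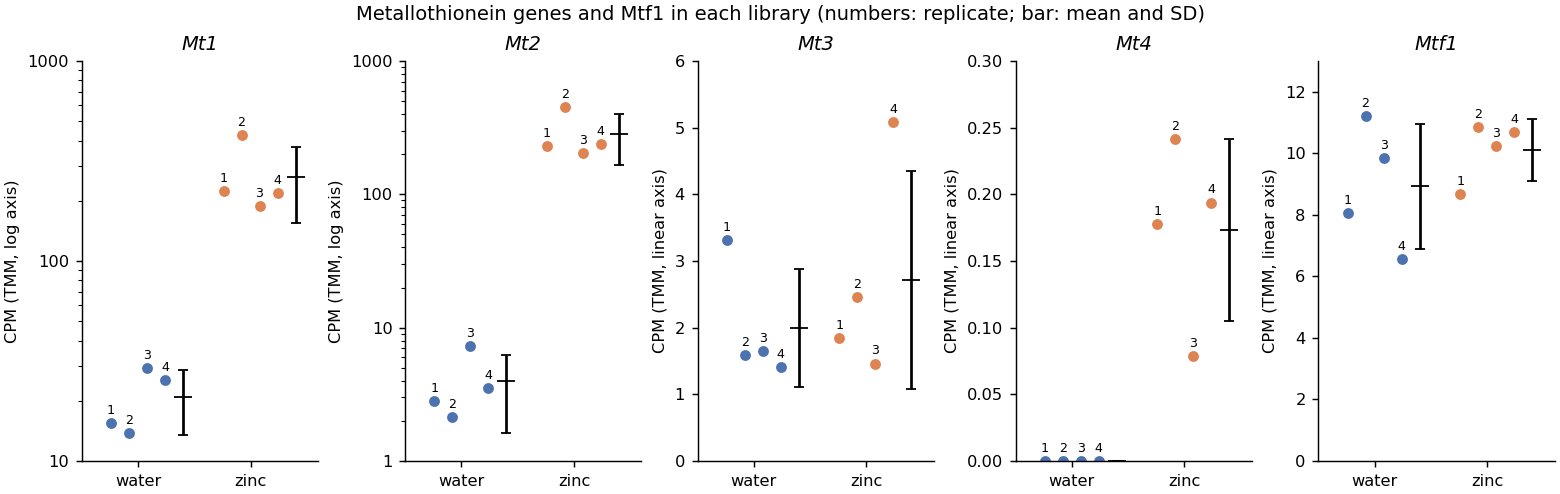
Level of Mt1, Mt2, Mt3, Mt4 and Mtf1 in CPM after TMM scaling (vertical axes, on a log scale for Mt1 and Mt2 and linear for the others) in the 4 water and 4 zinc libraries. Points are libraries with their replicate number and the bar gives the mean and SD; Mt1 and Mt2 do not overlap between groups, Mt3 and Mtf1 do, and Mt4 has no counts with water.

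Mt1 and Mt2 did not rise in proportion. Of the counts of both genes together, Mt2 held 15.4%, 13.5%, 20.1% and 12.2% in water libraries 1 to 4, and 51.0%, 51.7%, 52.1% and 52.3% in zinc libraries 1 to 4. The Wilson 95% intervals, which cover counting error only, were 10.03 to 14.7% in water 4, 17.6 to 22.9% in water 3, 49.9 to 52.1% in zinc 1 and 51.4 to 53.2% in zinc 4. On average the share of Mt2 was 15.3% ± 3.46 in the water group and 51.8% ± 0.578 in the zinc group (SD over 4 libraries in each). The exact two-sided permutation test gave p = 0.0286, the smallest that 4 against 4 libraries allow. On the log2 scale the ratio of Mt2 to Mt1 counts was -2.49 ± 0.37 in the water group and 0.10 ± 0.033 in the zinc group (SD, n = 4 each), a difference of 2.59 with the same exact two-sided permutation p of 0.0286. In other words there were 0.182 Mt2 counts per Mt1 count with water and 1.07 with zinc. Since both genes were counted in the same library, this ratio does not depend on how libraries were scaled.

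The spread between zinc mice in the amount of the transcripts was wide beside the spread in their ratio. The highest zinc library stood 2.25 times above the lowest for Mt1 and 2.22 times for Mt2, while the Mt2 share ran from 51.0 to 52.3%. In the water group the highest library stood 2.12 times above the lowest for Mt1 and 3.41 times for Mt2, and the Mt2 share ran from 12.2 to 20.1%. Summed and set against the library total without further scaling, Mt1 and Mt2 took 13.9, 16.2, 38.8 and 35.0 CPM with water and 352, 878, 413 and 561 with zinc. The group means of 25.97 ± 12.7 and 551 ± 235 CPM (SD, n = 4 each), on this scale, differed with an exact two-sided permutation p of 0.0286.

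**Figure D2:**
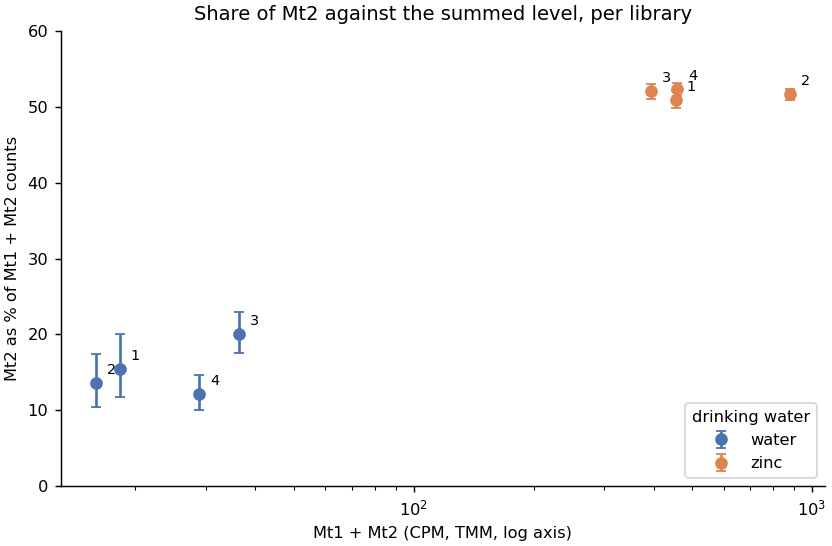
Share of Mt2 in the summed counts of Mt1 and Mt2, in percent (vertical axis, with Wilson 95% intervals that cover counting error only), against the summed level of both genes in CPM after TMM scaling (horizontal log axis), with 1 point for each of the 4 water and 4 zinc libraries. The water libraries lie between 12.2 and 20.1% and the zinc libraries between 51.0 and 52.3%.

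Mt2 shares part of its locus with a gene on the other strand. The lncRNA gene Gm45774 (chromosome 8, 94892504 to 94900040, minus strand) overlaps 1222 bases of the Mt2 gene, and 30.9% of the 75-base windows of Mt2 transcripts also occur in it in the opposite direction. The sources used here do not say whether strand was used in counting, and without strand, reads of the 2 genes cannot be told apart. Gm45774 had 0, 0, 0 and 9 counts with water and 12, 27, 23 and 24 with zinc, which is 0.286 to 0.443% of the Mt2 counts in the zinc libraries. Its log2 difference of 3.25, with an SE of 0.84 (edgeR adjusted p of 0.402), rests on the 9 counts of water 4: it was 4.35 with limma-voom, and 7.39 without water 4, where the fit has only zeros on the water side and the value depends on the prior count. Gm45774 passed the filter on low counts through the zinc libraries. With the Gm45774 counts taken off Mt2, the log2 ratio of Mt2 to Mt1 differed by 2.62 between the groups (exact two-sided permutation p = 0.0286). This cannot settle the strand question, because it is not known how reads in the overlap were assigned, and counts this few could hardly move the ratio. No 75-base window of Mt1, Mt3 or Mt4 occurred in another gene.

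Mt3 was low in both groups and its groups overlapped. It had 53, 37, 39 and 37 counts with water and 31, 51, 37 and 131 with zinc. The CPM were 3.31, 1.59, 1.65 and 1.41 with water and 1.84, 2.46, 1.46 and 5.08 with zinc, so that zinc 4 and water 1 stood above the other 6 libraries. The mean was 1.99 ± 0.888 with water against 2.71 ± 1.63 CPM with zinc (SD, n = 4 each). The log2 difference of 0.47 with an SE of 0.40 (edgeR adjusted p of 0.998) became -0.040 without zinc 4.

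Mt4 was at the limit of detection. It had 0 counts in each water library and 3, 5, 2 and 5 counts in zinc libraries 1 to 4, or 0.178, 0.241, 0.079 and 0.194 CPM. With 0 counts allowing up to 3 counts in each library, zinc 1 and zinc 3 stood at or under that limit, and no fold is given. Mt4 did not pass the filter on low counts and was not tested there. With no filter, edgeR gave an unadjusted p of 0.00862 and an adjusted p of 0.610 over 20836 genes. A difference in Mt4 between the groups was therefore not called after adjustment, and with so few counts a real one could have gone unseen.

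Mtf1, whose product is the sensor, overlapped between the groups. Its counts were 129, 261, 233 and 172 with water and 146, 225, 259 and 276 with zinc. This gave 8.07, 11.2, 9.86 and 6.57 CPM with water and 8.67, 10.9, 10.2 and 10.7 CPM with zinc. All 4 zinc libraries lay inside the range of the water libraries. The mean was 8.93 ± 2.03 with water against 10.1 ± 1.00 CPM with zinc (SD, n = 4 each), which gave a log2 difference of 0.18 with an SE of 0.18 (edgeR adjusted p of 0.998). A small part of Mtf1 (761 bases) lies antisense to 1110065P20Rik, and 7.16% of its 75-base windows are shared with that gene in the opposite direction. The protein level and activity of MTF1 were not measured.

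To set the genes beside each other, counts were divided by the length of the canonical transcript and scaled to the same sum in every library, as in TPM. On this scale the level with water was 24.4 ± 12.8 for Mt1, 4.63 ± 3.10 for Mt2, 1.81 ± 0.268 for Mt3 and 0.987 ± 0.286 for Mtf1 (SD, n = 4), with Mt4 at 0. The ranges of Mt2 and Mt3 met over the water libraries. Within a library Mt2 stood above Mt3 in water 2, 3 and 4 and just under it in water 1 (2.15 against 2.18). With zinc the level was 323 ± 142 for Mt2, 294 ± 128 for Mt1, 2.94 ± 2.53 for Mt3, 1.15 ± 0.379 for Mtf1 and 0.371 ± 0.182 for Mt4 (SD, n = 4). The ranges of Mt2 and Mt1 overlapped there over libraries, while within each zinc library Mt2 stood above Mt1. The levels of Mt2 and Mt1 were 182 and 172 in zinc 1, 503 and 461 in zinc 2, 242 and 219 in zinc 3, and 364 and 326 in zinc 4. Among 54749 genes ranked by this level in each library, Mt1 moved from places 583 to 1595 with water to places 47 to 76 with zinc. Mt2 moved from places 2790 to 6782 to places 45 to 70. Mtf1 held places 8617 to 9944 with water and 8758 to 9216 with zinc.

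Of the other MTF1 targets, Slc30a1 also rose. Slc30a1 (ENSMUSG00000037434), the exporter that carries zinc out through the cell membrane, had 1.00, 2.36, 3.30 and 3.36 CPM with water and 7.84, 9.80, 10.2 and 13.4 CPM with zinc. The groups did not overlap, and the lowest zinc library stood 2.33 times above the highest water library. The mean of Slc30a1 rose from 2.51 ± 1.10 to 10.3 ± 2.31 CPM (SD over 4 libraries in each group), a log2 change of 2.01 with an SE of 0.29 (edgeR adjusted p of 0.0198). After TMM scaling Slc30a1 was highest in zinc 4 and lowest in zinc 1, while Mt1 and Mt2 were highest in zinc 2 and lowest in zinc 3. On library totals alone Mt1 and Mt2 were also lowest in zinc 1. Its edgeR adjusted p was above the threshold when scaled by library totals alone (0.0836), without water 2 (0.0862) and without zinc 2 (0.0652).

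Slc39a10 encodes an importer of zinc that MTF1 is known to hold down. It had 41.8, 44.8, 30.3 and 30.6 CPM with water and 29.2, 22.8, 25.3 and 20.7 CPM with zinc. Every zinc library lay below every water library, with zinc 1 close to water 3. The mean was 36.9 ± 7.50 with water against 24.5 ± 3.66 CPM with zinc (SD, n = 4 each), and the log2 difference of -0.59 with an SE of 0.15 did not pass over all genes (edgeR adjusted p of 0.388). With no filter on low counts it did pass, with an edgeR adjusted p of 0.00790.

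The MTF1 target list held these genes and Gclc, Selenow, Ndrg1, Csrp1, Pgf and Slc30a2, 8 in all. Of the 7 tested, 1 was higher past the threshold (Slc30a1) and 0 lower, with a median log2 fold change of 0.24 beside 0.01 over all genes tested. An unadjusted edgeR p under 0.05 was seen for 3, beside 558 of all 11988 genes tested. No overlap was seen for 2 higher members and 1 lower member, beside 1.24% higher and 1.59% lower of all genes tested. The higher one beside Slc30a1 was Selenow, which encodes a selenoprotein and was named after its values had been seen, with 27.4 ± 0.899 CPM with water against 36.9 ± 5.20 with zinc (SD, n = 4 each, edgeR adjusted p = 0.526). Of 24 zinc transporter genes of the Slc30a and Slc39a families, 19 were tested, of which 1 was higher (Slc30a1) and 0 lower with edgeR. Their log2 fold changes ran from -0.78 to 2.01 with a median of 0.06, and 3 had an unadjusted edgeR p under 0.05. The lowest was Slc39a4, named after its values had been seen, at 44.7 ± 9.06 CPM with water against 26.1 ± 7.62 with zinc (SD, n = 4 each). Its groups overlapped, and its log2 difference was -0.78 with an SE of 0.20 (edgeR adjusted p of 0.513). With DESeq2 it passed as lower.

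Metallothionein genes can also be induced through oxidants, heat shock factors and glucocorticoids, so lists of such genes were read in the same fit. In the metal and oxidative stress list, which held Hmox1, heat shock genes and targets of NRF2, 12 of 12 were tested and 0 passed with edgeR, 0 had an unadjusted p under 0.05, and DESeq2 and limma-voom also called 0. Their log2 fold changes ran from -0.43 to 0.36 with a median of 0.07. The SE was 1.07 for Hspa1b, 1.01 for Hspa1a, 0.82 for Slc7a11, 0.55 for Hsph1 and 0.44 for Hmox1. For the other members it ran from 0.10 (Txnrd1) to 0.31 (Osgin1). A change in the genes with a wide SE could have gone unseen. The member with the smallest p was Gsr, the gene of glutathione reductase, with 47.5 ± 5.04 CPM with water against 53.8 ± 7.58 with zinc (SD, n = 4 each, edgeR adjusted p = 0.998). In the glucocorticoid target list 7 of 8 genes were tested and 0 passed with edgeR, 1 had an unadjusted p under 0.05, and DESeq2 and limma-voom called 0. Their log2 fold changes ran from -0.23 to 0.42 with a median of 0.14. That gene was Fkbp5, which encodes a chaperone of the glucocorticoid receptor, with 12.4 ± 1.99 CPM with water against 16.1 ± 2.56 with zinc (SD, n = 4 each, edgeR adjusted p = 0.998). The gene that did not pass the filter was Zbtb16, which was lower with zinc without overlap. Zbtb16 had 0.688, 0.387, 0.465 and 0.191 CPM with water and 0, 0, 0.079 and 0 with zinc, under the level of 3 counts.

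**Figure D3:**
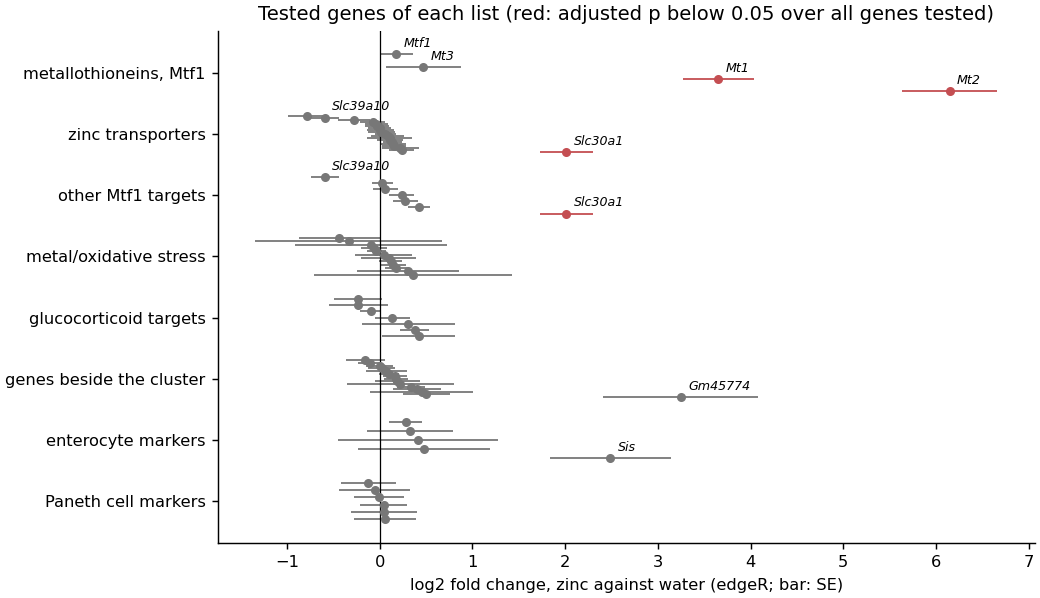
Log2 fold change of zinc against water (horizontal axis) with its SE as a bar, for each tested gene of the metallothionein group, the other lists and the enterocyte and Paneth cell markers, with red points for genes past the edgeR threshold. Mt2 at 6.15, Mt1 at 3.65 and Slc30a1 at 2.01 (shown in both of its lists) are the red points, and the stress and glucocorticoid lists lie between -0.43 and 0.42.

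The genes around the metallothionein cluster were read to see whether the whole region moved. Of 29 genes of the table within 500 kb of the cluster, 15 were tested and 0 passed with edgeR, while 2 had an unadjusted p under 0.05, DESeq2 called 0 and limma-voom called 1, the antisense gene Gm45774. Outside the cluster the 14 tested genes had log2 fold changes from -0.15 to 0.50. The median of all 15, Gm45774 among them, was 0.18 beside 0.01 over all genes tested. The nearest tested gene on the Mt4 side was Bbs2, a gene of the ciliary BBSome complex, 38.3 kb away, with 3.18 ± 0.827 CPM with water against 4.50 ± 0.732 with zinc (SD, n = 4 each). On the Mt1 side it was Nup93, a gene of the nuclear pore, 34.1 kb away, with 13.7 ± 2.44 CPM with water against 17.4 ± 1.95 with zinc (SD, n = 4 each). Both had an edgeR adjusted p of 0.998, with log2 fold changes of 0.50 (SE 0.25) for Bbs2 and 0.34 (SE 0.15) for Nup93. The unadjusted edgeR p was 0.0616 for Bbs2 and 0.0390 for Nup93.

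**Figure D4:**
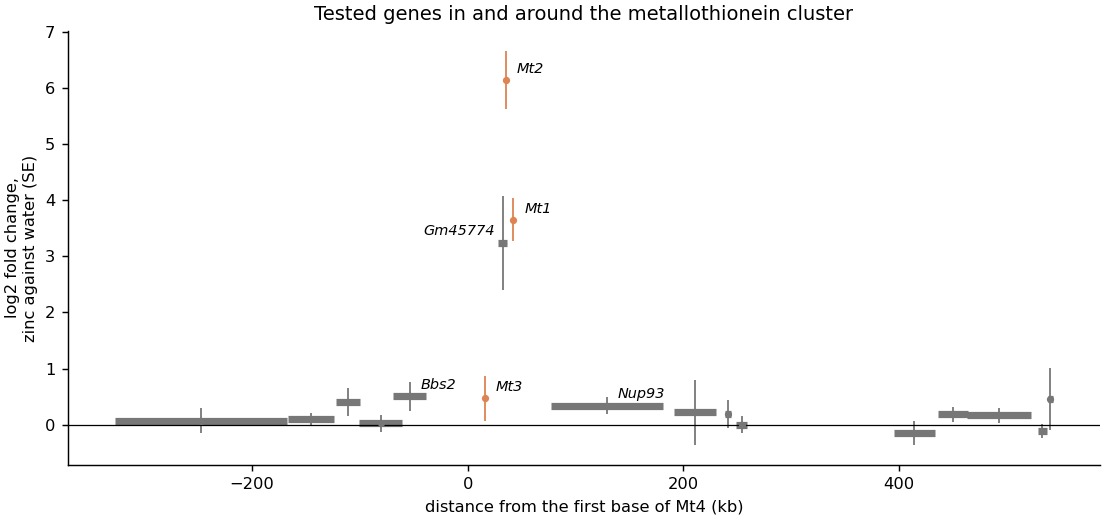
Log2 fold change of zinc against water (vertical axis, thin bars give the SE) of tested genes by distance in kb from the first base of Mt4 (horizontal axis, thick bars give the extent of each gene), with metallothionein genes in orange and other genes in grey. Mt2 at 6.15, Mt1 at 3.65 and the antisense gene Gm45774 at 3.25 (4.35 with limma-voom, with counts in 1 of 4 water libraries) stand above the 14 tested genes outside the cluster, which lie between -0.15 and 0.50.

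The profiles most like Mt1 and Mt2 over the 8 libraries were found by the root mean square difference of log2 CPM, each gene centred on its own mean. For Mt1 these were Gm45774 (0.740), the zinc finger gene Zkscan4 (0.808), Slc30a1 (0.928), the adenylate cyclase gene Adcy3 (1.03) and the brush border sucrase gene Sis (1.11), where the median over all genes tested was 1.89. For Mt2 they were Mt1 (1.30), Gm45774 (1.84), Zkscan4 (1.93), Slc30a1 (2.14) and Adcy3 (2.19), where the median was 3.16. Zkscan4 and Adcy3 were low, with means of 0.121 and 0.219 CPM with water and 0.928 and 1.22 CPM with zinc, and neither passed the threshold (edgeR adjusted p = 0.403 and 0.209). Like Gm45774, both passed the filter on low counts through the zinc libraries. The water mean of Zkscan4 lay within the level of 3 counts, 0.115 to 0.188 CPM. A likeness of this kind selects genes that differ between the groups, so it is a description.

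Enterocytes also express metallothioneins, and their markers were read beside these results. All 8 enterocyte markers had counts, and their summed level was 38.5 to 59.5 CPM with water and 53.5 to 80.9 CPM with zinc. Of the 5 tested, 0 passed with edgeR and 1 had an unadjusted p under 0.05, with log2 fold changes from 0.28 to 2.49. That marker was Sis, with 1.63, 1.93, 1.69 and 2.86 CPM with water and 2.38, 22.8, 13.04 and 7.80 CPM with zinc (edgeR adjusted p = 0.852). Most of the sum was Fabp2, at 42.2 ± 7.69 CPM with water and 51.2 ± 13.9 with zinc (SD over 4 libraries in each). The group means were 0.650 and 0.910 CPM for Apoa1, 1.13 and 1.44 for Apoa4 and 0.432 and 0.640 for Rbp2, which were tested, and 0.241 and 0.230 for Alpi, 0.420 and 0.262 for Fabp1 and 0 and 0.0658 for Lct, which were not, with water first in each pair. Mt1 and Mt2 together stood at 394 to 881 CPM in the zinc libraries. Their level in enterocytes was not measured, so this sum cannot be weighed against that of the markers. The part of these cells in the result was not tested, and in bulk RNA a change in the number of cells of a type and a change in RNA per cell cannot be told apart.

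**Figure D5:**
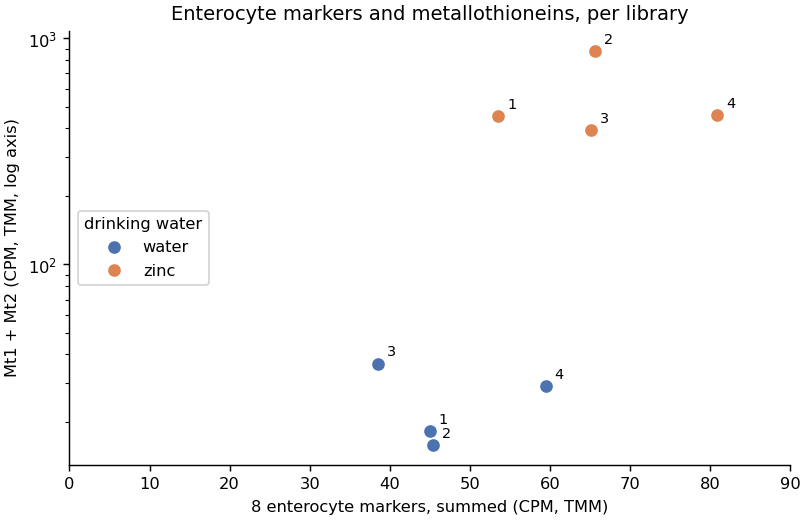
Summed level of Mt1 and Mt2 (vertical log axis) against the summed level of 8 enterocyte markers (horizontal axis), both in CPM after TMM scaling, with 1 numbered point for each of the 4 water and 4 zinc libraries. The markers run from 38.5 to 59.5 CPM with water and from 53.5 to 80.9 CPM with zinc, while Mt1 and Mt2 run from 15.9 to 36.4 CPM and from 394 to 881 CPM.

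Markers of other cell types were read in the same way. The summed goblet cell markers were at 3153 to 4152 CPM with water and 3433 to 5867 CPM with zinc, and the enteroendocrine markers at 4.44 to 84.3 and 8.91 to 53.4 CPM. Tuft cell markers were at 10.01 to 91.1 CPM with water and 13.005 to 59.5 CPM with zinc. Crypt stem cell markers were at 4356 to 5728 CPM with water and 3047 to 4455 CPM with zinc, with 0 of 4 past the edgeR threshold and 1 with an unadjusted p under 0.05. Immune markers summed to at most 1.22 CPM with water and 0.119 CPM with zinc, with Cd3e and Itgax at 0, and markers of stroma and endothelium to at most 0.625 CPM with water and 0 with zinc, with Col1a1 and Dcn at 0 throughout. Their part in the metallothionein result was not tested.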

How the data were processed

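The authors deposited raw counts of reads, as whole numbers with no normalization, for each Ensembl gene ID in each library. The submitters' processing notes name FastQC 0.12.0, STAR 2.7.0a, DESeq2 and the build mm39, while the counting program, its strand setting and the handling of reads that map to several genes were not given in the sources used here. Gene IDs were matched to GENCODE M39 on GRCm39 (54749 of 55414 IDs, at least 99.99% of counts).

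Zinc was compared with water by the quasi-likelihood F test of edgeR 4.0.16 in R 4.3.3, with TMM scaling, the default filter (minimum count 10) and Benjamini-Hochberg adjustment over 11988 genes at a threshold of 0.05. The robust option was used in the dispersion estimate and in the quasi-likelihood fit. The SE is the absolute log2 change divided by the root of F. Exact two-sided permutation tests (70 assignments) were used for ratios and shares in SciPy 1.17.1, with 0.5 counts added to each gene for the ratio. Each library came from 1 mouse. No pair of libraries within a group agreed within sampling noise. Libraries had no molecular identifiers, so intervals and floors cover counting error only.

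The genes, lists and tests were chosen with earlier results of these data known. The rule named the 5 genes, Slc30a1 and Slc39a10 whatever their result, list members past the threshold (otherwise the one with the smallest p), the nearest tested gene on each side of the cluster, and the 5 most alike profiles of Mt1 and Mt2. The alternatives were RLE size factors, library totals alone, Defa genes left out, DESeq2 1.42.0, limma-voom (limma 3.58.1), no filter, a minimum mean count of 50, a block for the replicate number, and leaving out each library (8 fits). For the stress, glucocorticoid and neighbouring genes they were chosen after seeing the data, as was taking the Gm45774 counts off Mt2. The main edgeR fit was tested on data simulated with dispersions estimated from these libraries, and the alternatives were not. Sequences were read from GRCm39, and no protein sequence was used here.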

Additional observations from a re-analysis of the deposited data

Results flagged for a closer look

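Of 18 groups of 4 libraries examined with Dixon's test at the 95% level, 3 held a library that stood apart, where chance gives about 1 in 20. Mt1 in zinc 2 was at 425 CPM and Mt2 in zinc 2 was at 455 CPM, each far above the other 3 zinc libraries, with a gap to the next library of 0.856 and 0.861 of the range of the group. Without TMM scaling, on library totals, these gaps were 0.623 and 0.585 of the range and no longer stood apart. Mt3 in water 1 was at 3.31 CPM, above the other 3 water libraries, with a gap of 0.876 of the range, and 0.846 on library totals.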

How the results depend on the processing

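Mt1 and Mt2 were higher with zinc under each of the 8 alternatives that kept all libraries and each of the 8 that left 1 out. With all libraries and no block the edgeR, DESeq2 or limma-voom adjusted p stayed below 0.05 for both. The tools gave adjusted p of different size. For Mt1 it was 0.0259 with edgeR, 9.54e-17 with DESeq2 and 4.95e-06 with limma-voom. For Mt2 it was 0.0198 with edgeR, 6.41e-36 with DESeq2 and 9.13e-07 with limma-voom. The 8 fits without 1 library gave log2 fold changes of 3.32 to 3.85 for Mt1 (edgeR adjusted p 0.000333 to 0.159, below 0.05 in 2 of 8), 5.82 to 6.63 for Mt2 (0.00120 to 0.0906, 5 of 8), -0.040 to 0.81 for Mt3 (reversed to -0.040 without zinc 4) and 0.05 to 0.30 for Mtf1, and differences of 0.1504 to 0.204 CPM for Mt4. They put 0 to 2 of the 5 genes, 0 to 5 higher and 1 to 12 lower genes of all, 0 to 2 transporters, 0 to 1 MTF1 target and 0 to 1 neighbouring gene past the threshold. The ratio difference lay between 2.47 and 2.75 and the summed share between 416 and 592 CPM, both at the smallest exact p that 4 against 3 libraries allow (0.0571). Over all genes, DESeq2 called 8 higher and 26 lower, and the fit with no filter called 11 and 55. Past the threshold were 2 transporters with DESeq2, Slc30a1 higher and Slc39a4 lower (DESeq2 adjusted p = 0.0403). With no filter 3 transporters passed, as Slc39a10 was also lower (edgeR adjusted p = 0.00790, and 6.89e-06 for Slc39a4). Also past it were 2 MTF1 targets with no filter, 0 of either list on library totals, and 1 neighbouring gene (Gm45774) with limma-voom and 1 with no filter. Slc39a4, named after its values had been seen, also passed as lower without zinc 1 (edgeR adjusted p = 0.0499) and with the replicate block (0.00858). The cause was not tested. The labels do not say what the replicate numbers mark. The deviations of same-numbered libraries correlated at 0.233, 0.0000551, 0.127 and 0.263, so pair 2 did not reach the 0.1 asked of every pair, and the samples were taken as unpaired. Water 1, 3 and 4 correlated best with their own number and water 2 did not, and the TMM factors were close within each number (0.764 and 0.775, 1.017 and 0.998, 1.066 and 1.050, 1.213 and 1.225), which is a hint of pairing from the data. With the replicate number as a block, the log2 fold change was 3.62 for Mt1 (edgeR adjusted p = 0.379), 6.14 for Mt2 (0.241) and 0.20 for Mtf1, 0 of the 5 genes, 6 higher and 26 lower genes of all, 3 transporters (Slc30a1, Slc39a4 and Slc39a10, the last at 0.0381) and 2 MTF1 targets passed, and the ratio difference of 2.59 and the share difference of 525 had a sign-flip p of 0.125, the smallest possible. Mt4 was below the filter, so the other tools and scalings gave no value for it beyond library totals. At this depth Mt4, with 0 to 5 counts a library, could not be tested after the filter.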
